A study of Mus musculus with 6 samples.

Results

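Ly6a, Cd24a, Epcam, Bmi1 and Mapk14 are genes that earlier mouse work proposed as surface markers or growth regulators of bronchioalveolar stem cells (BASC). They were taken by name, with no threshold on their values but with earlier results of these data known. They are 5 of the 22239 genes in the deposited expression table. All 5 were among the 17721 genes that had at least 10 normalised counts in at least 2 of the 6 libraries, Ly6a through its Club cell values and 1 BASC value. RNA was sequenced in bulk from cells sorted out of mouse lung at the age of 8 weeks. The BASC samples carried both reporters, CCSP-mCherry for Scgb1a1, which encodes the club cell secretory protein, and SPC-YFP for Sftpc, which encodes surfactant protein C. The alveolar type 2 (AT2) samples were sorted as SPC-YFP+, and the samples of bronchiolar Club cells as CCSP-mCherry+. Each population had 2 samples, all sorted on endogenous reporter expression after cells bearing CD31 or CD45 had been depleted from the lung homogenate. The labels do not say whether cells positive for the other reporter were kept out of the AT2 and Club gates, nor whether the 2 samples of a population came from different mice. A p-value below therefore sets a difference against a spread between samples that may be technical. That spread was pooled over all populations and drawn toward that of other genes.

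BASC are cells at the junction of bronchiole and alveolus that hold both a Club and an AT2 secretory product. In mouse lung they were first sorted with Sca-1, the surface protein of Ly6a, together with CD34, and later schemes used the epithelial adhesion protein EpCAM and a low level of the glycoprotein CD24. Bmi1, a subunit of the polycomb repressive complex PRC1, and Mapk14, the kinase p38 alpha, became linked to BASC because mice lacking either gene changed in the growth of these cells.

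From the spacing of low values, the reads behind the table were estimated at 10121884 to 18203252 per library, so the floor of 3 reads that a library at 0 allows was worth 2.29 to 4.02 normalised counts. The labelled cell types matched their defining genes. Sftpc had 290809 and 307458 normalised counts in the BASC libraries and 301267 and 373742 in the AT2 libraries, against 240 and 224 in the Club libraries. Scgb1a1 had 43993 and 58791 in the BASC libraries and 413 and 302 in the AT2 libraries, against 751642 and 760675 in the Club libraries, so the BASC mean was 6.80% of the Club mean. The 15 ciliated cell markers fixed as a list summed to 1113 to 1307 in BASC and 897 to 1049 in AT2, against 10264 to 10713 in Club cells. The 8 endothelial markers of 14 that the table listed summed to 591 to 763 in BASC and 1053 to 1167 in AT2, against 70 to 93 in Club cells. Sums of 6 listed immune markers of 13 were 372 to 433 in BASC and 297 to 442 in AT2, against 179 to 227 in Club cells.

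None of the 5 genes had its highest mean in BASC. Cd24a set BASC far apart from AT2. Ly6a was highest in the Club samples and low in BASC. Epcam, Bmi1 and Mapk14 were present at moderate to high levels in all 6 libraries. The calls come from limma on log2(normalised count + 1), at an adjusted p under 0.05 over all 17721 genes. When BASC were set against AT2, 1 member was higher (Cd24a), 0 were lower and 4 were not called. Over all genes tested, 0.553% were called higher and 0.079% lower in that comparison. At an unadjusted limma p under 0.05 the members held 2 higher and 0 lower, beside 1257 higher and 1079 lower of all 17721 genes. The unadjusted counts of the gene lists below are for the same comparison and have that same background. Set against Club cells, BASC had 0 members higher, 1 lower (Cd24a) and 4 not called, where 5.77% of all genes were called higher and 5.42% lower. At an unadjusted p under 0.05, that comparison had 1 member higher and 2 lower, beside 2001 higher and 2352 lower of all 17721 genes. Between AT2 and Club cells, Bmi1 was called higher in AT2, Ly6a and Cd24a were called lower, and 2 were not called, where 8.42% of all genes were called higher and 9.71% lower. Against the midpoint of AT2 and Club cells on the log2 scale, Cd24a was called higher in BASC and the other 4 were not called, where 1.61% of all genes were called in either direction. The differences of these 4 from the midpoint were -0.38 for Ly6a, -0.26 for Epcam, 0.10 for Bmi1 and 0.08 for Mapk14 on the log2 scale, with adjusted p-values from 0.324 to 0.909. With 2 samples against 2, an exact permutation test of a single gene cannot go below p = 0.333, so the calls rest on the spread that limma shares across genes. The 3 comparisons share their libraries and are not independent of each other.

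**Figure D1:**
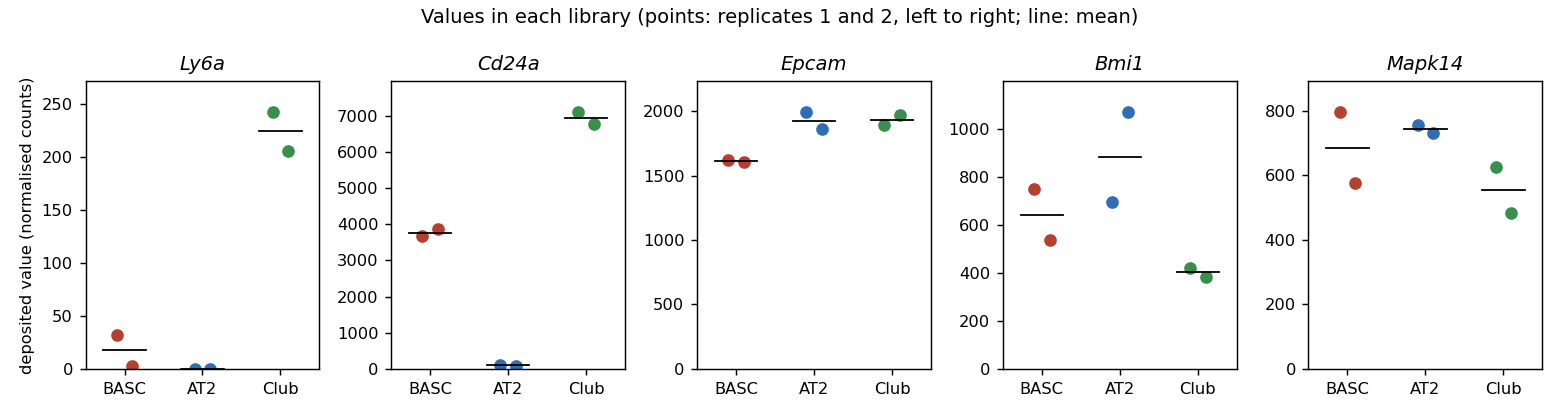
Deposited values of the 5 genes in each library, with 1 panel per gene and normalised counts on an axis that starts at 0; points are the 2 replicates of BASC, AT2 and Club cells and the line is their mean. Cd24a in BASC, at 3685 and 3858, lies between the AT2 libraries, at 118 and 94, and the Club libraries, at 7109 and 6778, and Epcam in BASC, at 1620 and 1604, is the lowest of the populations by a small margin.

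The plot of values by library shows 3 kinds of pattern. In Cd24a and Ly6a the populations did not overlap and Club cells lay highest, 1.84-fold above BASC by the means of Cd24a, while BASC replicate 2 of Ly6a was at the floor of 3 reads. In Epcam the points of all populations lay close together, and in Bmi1 and Mapk14 the replicates lay far enough apart for BASC to overlap AT2. The share of all genes without overlap between populations was not counted. Lack of overlap, here and below, therefore only describes the values. Compared per kilobase of exon, Cd24a and Epcam were the most abundant members in BASC, at 1462 ± 47.4 and 734 ± 5.15 normalised counts per kilobase (SD, n = 2). Bmi1 followed with 161 ± 37.9, Mapk14 with 157 ± 35.9, and Ly6a with 14.5 ± 17.0 normalised counts per kilobase (SD, n = 2). On this length-corrected scale the Cd24a level in BASC lay above 98.9% of protein coding genes and the Epcam level above 97.4%. Bmi1 and Mapk14 lay above 82.6% and 82.0% of them in BASC, and their order there does not hold against the spread of their replicates.

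Ly6a encodes Sca-1, a GPI-anchored surface protein of the Ly6 family (ENSMUSG00000075602, GRCm38 chr15:74994877-74998031, minus strand). It had 32 and 3 normalised counts in the BASC libraries and 0 and 0 in the AT2 libraries, against 243 and 206 in the Club libraries. Both Club libraries stood far above the other 4, BASC replicate 2 was near the limit of detection, and no population overlapped another. In estimated reads, BASC replicate 1 had 24 and replicate 2 had 3. Their 95% Poisson intervals, 15.4 to 35.7 and 0.619 to 8.77 reads, take each read as independent, although amplified reads are not. The gap between the BASC samples was 3.04 on the log2 scale, larger than that of 68.5% of 1151 genes of like level, whose median gap was 1.83. The BASC mean was 17.5 ± 20.5 normalised counts (SD, n = 2), which is 7.80% of the Club mean of 224.5 ± 26.2. Against the floor of 3 reads per library in AT2, that mean was at least 6.36-fold higher and the Club mean at least 81.6-fold higher, the first bound resting on BASC replicate 1. These bounds cover counting error only.

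For Ly6a the fitted log2 difference of BASC from Club cells was -4.29 ± 1.26 (SE), with a 95% interval of -7.26 to -1.32, and it was not called (limma adjusted p = 0.0773). BASC against AT2 gave 3.52 ± 1.26, with an interval of 0.56 to 6.49, and was not called either (adjusted p = 0.294). The difference was 2.00 without BASC replicate 1 and 5.04 without BASC replicate 2, which shows how far the position of BASC depended on a single library. The call of BASC against Club cells was made in 3 of the alternatives tried, with an added constant of 8 (adjusted p = 0.0184), among genes with at least 50 normalised counts (adjusted p = 0.0343) and without BASC replicate 1 (adjusted p = 0.0429). AT2 against Club cells was called, at -7.81 ± 1.26 (adjusted p = 0.00581), but not without Club replicate 1 (-7.69, adjusted p = 0.0631) or Club replicate 2 (-7.93, adjusted p = 0.0533). In annotated sequence, 19% of the 50-base stretches of Ly6a exons also occur in other genes, 15% in Ly6c1, so reads from the neighbouring family members cannot be fully told apart. Ly6c1 itself had 99 and 74 normalised counts in the BASC libraries and 250 and 95 in the AT2 libraries, against 17 and 18 in the Club libraries, a pattern opposite to that of Ly6a. Sca-1 is also borne by endothelial cells. The endothelial marker sums were lowest in Club cells, but the markers were not of one direction. Of the 6 tested, Esam was called higher and Vwf lower in AT2 than in Club cells. Ciliated marker sums were highest in Club cells. The part of endothelial or ciliated cells in the Ly6a levels was not tested.

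The genes whose profile over the 6 samples was most like that of Ly6a, by the root mean square difference of centred log2 values among 8835 coding genes, were Kif19a (0.456, r = 0.999), Adcyap1r1 (0.537, r = 0.990) and Grip1 (0.538, r = 0.990). Kif19a, which encodes a kinesin of motile cilia, had 51 and 5 normalised counts in the BASC libraries and 0 and 0 in the AT2 libraries, against 560 and 415 in the Club libraries. Like Ly6a, it had a high first and a low second BASC library, which follows largely from its choice by profile. These r values are a description over 6 libraries that fall into 3 populations.

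Around Ly6a, 20 of 30 listed Ly6 and uPAR domain genes were in the table and 17 were tested. Between BASC and AT2, limma called 0 of the 17 (at an unadjusted p under 0.05, 5 higher and 2 lower), and their median log2 difference was 0.48, beside 0 over all genes. Against Club cells, BASC had 0 higher and 2 lower, with a median of -1.92 beside -0.10 over all genes. These were Lypd6, with 0 and 1 normalised counts in the BASC libraries against 120 and 126 in the Club libraries (adjusted p = 0.0102), and Ly6g6c, with 3 and 7 in the BASC libraries against 104 and 81 in the Club libraries. AT2 against Club cells gave 2 higher and 7 lower, the lower ones being Ly6a, Ly6e, Lynx1, Lypd2, Lypd6, Lypd6b and Plaur, the urokinase receptor gene. Ly6c1 and Ly6c2 were the higher ones, Ly6c1 at a log2 difference of 3.07 (adjusted p = 0.0223), which was 2.38 without AT2 replicate 1 and 3.76 without AT2 replicate 2 and reached an adjusted p of 0.0996 with 1 library left out. Lypd2 had 24 and 0 normalised counts in the AT2 libraries against 1899 and 1654 in the Club libraries, 148-fold lower in AT2 by the means (adjusted p = 0.00599). The call was kept whichever library was left out, but the ratio was 74.0 without AT2 replicate 2, and the fitted log2 difference ran from -10.79 to -6.15. Ly6e, the family's most abundant named member, had 5037 and 5278 normalised counts in the BASC libraries, 3672 and 4141 in the AT2 libraries and 6891 and 6915 in the Club libraries. Its BASC values lay between the other populations with no overlap, but were called against neither (adjusted p = 0.177 against AT2 and 0.0513 against Club cells). The deposited table did not list Cd34, whose protein CD34 was the partner of Sca-1 in the first sorting scheme, so it could not be analysed.

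Cd24a encodes CD24, a small, heavily glycosylated GPI-anchored protein of epithelial and blood cells (ENSMUSG00000047139, GRCm38 chr10:43579169-43584265, plus strand). It had 3685 and 3858 normalised counts in the BASC libraries and 118 and 94 in the AT2 libraries, against 7109 and 6778 in the Club libraries. The replicates lay close together in every population, and the order of Club cells above BASC above AT2 held in every library. The BASC mean of 3772 ± 122 was 35.6-fold the AT2 mean of 106 ± 17.0 (SD, n = 2 each). The fitted log2 difference was 5.15 ± 0.158 (SE), with a 95% interval of 4.78 to 5.52 and a limma adjusted p of 2.57e-05, the third smallest p of the 17721 genes. It stayed called without any single library, at log2 differences from 4.99 to 5.31. In bulk samples, fewer cells carrying a transcript and less of it per cell cannot be told apart.

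The Cd24a mean in BASC was 54.3% of the Club mean of 6944 ± 234 (SD, n = 2). The log2 difference was -0.88 ± 0.158 (SE), with an interval of -1.25 to -0.51, and it was called (adjusted p = 0.0142). This call was lost without BASC replicate 1 (-0.85, adjusted p = 0.0815), BASC replicate 2 (-0.91, 0.0758), Club replicate 1 (-0.85, 0.126) or Club replicate 2 (-0.91, 0.0886), while the size moved little. AT2 was 65.5-fold lower than Club cells, at a log2 difference of -6.03 (adjusted p = 2.71e-06). Against the log2 midpoint of AT2 and Club cells, Cd24a in BASC was higher by 2.13 ± 0.137 (adjusted p = 0.000903). That call too was lost without BASC replicate 1 (2.17, adjusted p = 0.0736) or BASC replicate 2 (2.10, adjusted p = 0.0766), which leaves BASC as a single sample.

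**Figure D2:**
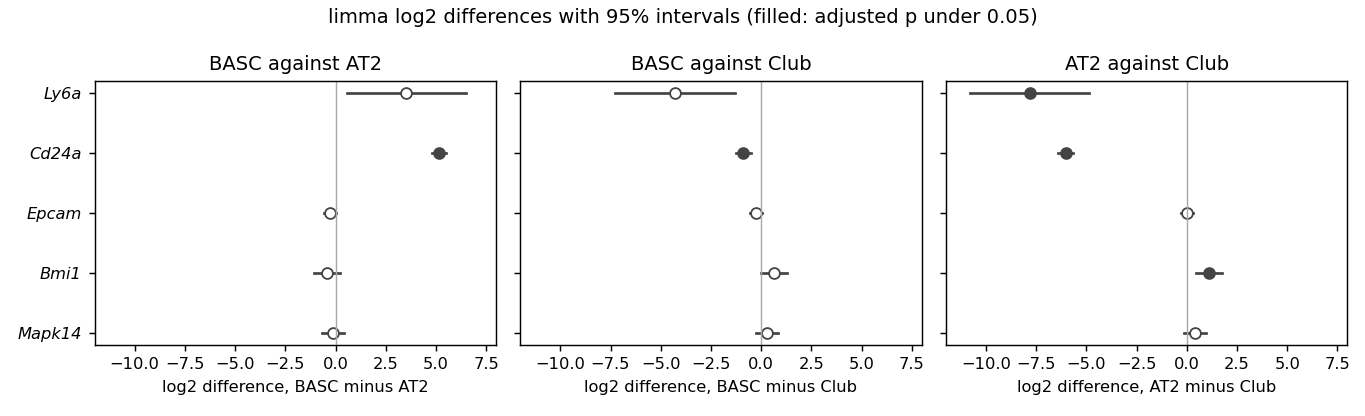
Fitted log2 differences of the 5 genes, taken as BASC minus AT2, BASC minus Club and AT2 minus Club, 1 panel per comparison, with 95% intervals from limma; filled points have an adjusted p under 0.05. Cd24a has narrow intervals, at 5.15, -0.88 and -6.03, Ly6a has the widest, and Epcam and Mapk14 lie near 0 in all panels.

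The plot of fitted differences shows how unequal the precision was between members. The SE was 1.26 for Ly6a, 0.274 for Bmi1, 0.233 for Mapk14, 0.158 for Cd24a and 0.125 for Epcam. The intervals of Cd24a and Epcam were therefore the narrowest.

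On the unlogged scale, the BASC level of Cd24a lay 53.6% of the way from the AT2 mean to the Club mean. This was set beside the 136 genes with a Club mean of at least 1000 that were called lower in AT2 than in Club cells with a log2 difference of 3 or more, limits that were chosen after the values had been seen. Over these, the median position of BASC was 6.60%, with quartiles of 1.67% and 15.4%, and Cd24a ranked 2 of 136. Slc25a37, which encodes the mitochondrial iron importer mitoferrin, was above it at 56.9%. Tnfrsf21 at 51.4%, Fign at 48.3% and Cckar at 48.1% came next. Ly6a, with its low Club mean, was not in this set, and its own position was 7.80%, near the median of the set. That position averages BASC libraries of 32 and 3 normalised counts, so it is imprecise. The 11 Club markers called lower in AT2 had positions from 0 for Upk3a to 34.1% for Sox2, a transcription factor gene of airway epithelium, with a median of 6.75%, the position of Scgb1a1. CD24 is also known from ciliated airway cells. The 12 ciliated markers called lower in AT2 had positions from -4.66% for Tppp3 to 11.3% for Ccdc113, with a median of 3.16%. Cd24a thus stood above each of these 23 markers, and the part of ciliated cells in its Club level was not tested.

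**Figure D3:**
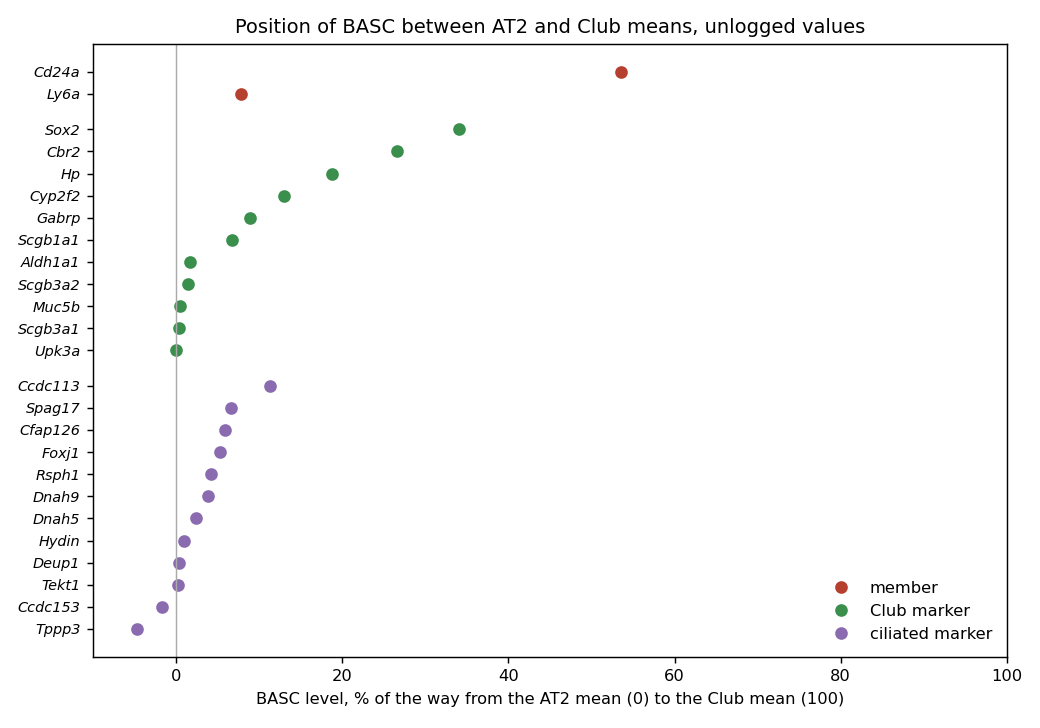
Position of BASC between the AT2 mean, at 0%, and the Club mean, at 100%, on unlogged normalised counts, for Cd24a and Ly6a, 11 Club markers and 12 ciliated markers that were called lower in AT2 than in Club cells. Cd24a is at 53.6%, right of every marker, while Ly6a, at 7.80%, lies among them.

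The plot of positions places the 2 surface antigens apart. On this unlogged scale Ly6a fell within the range of the Club and ciliated markers, and Cd24a was beyond the highest of them, Sox2. On the log2 scale the positions were 85.4% for Cd24a and 45.1% for Ly6a, and the markers were not placed on that scale. Unlike Cd24a, Sox2 was not called lower in BASC than in Club cells. The standing of Cd24a above the markers is thus shown for unlogged values only. Most similar to Cd24a over the 6 samples were Slc25a37 (root mean square log2 difference 0.228, r = 0.998), Rap1gap2 (0.486, r = 0.997) and Fhl1 (0.50, r = 0.984). Slc25a37 had 638 and 719 normalised counts in the BASC libraries and 21 and 22 in the AT2 libraries, against 1012 and 1340 in the Club libraries, and was called higher in BASC than in AT2. The r values again describe 6 libraries of 3 populations.

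Of 19 listed ligands and partners of CD24, 11 were tested, Cd24a among them. Apart from Cd24a, limma called 0 of 10 between BASC and AT2 (at an unadjusted p under 0.05, the list with Cd24a held 2 higher and 0 lower). Between BASC and Club cells it called 1 of the 10 higher, the endotoxin receptor gene Tlr4, which was 1.87-fold higher in BASC (adjusted p = 0.0460). This call was lost without either BASC or either Club library, with adjusted p-values up to 0.245. Fyn was higher in AT2 than in Club cells (log2 difference 3.32, adjusted p = 0.0400), and Lyn (-1.91, adjusted p = 0.00557) and L1cam (-1.15, adjusted p = 0.0447) were lower in AT2. Fyn and Lyn encode kinases of the SRC family and L1cam an adhesion protein. With 1 library left out, their adjusted p-values reached 0.160 for Fyn, 0.0637 for Lyn and 0.313 for L1cam.

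Among surface antigens that have been used to sort lung epithelial progenitors, 17 of 23 were tested. Cd24a was the 1 gene of them called in BASC against AT2, where at an unadjusted p under 0.05 they held 4 higher and 4 lower, and their median was -0.05. Against Club cells, 4 were higher in BASC (Itga3, Alcam, Icam1 and Anpep) and 4 lower (Cd24a, Itgb4, Prom1 and Pdpn). Anpep, the aminopeptidase CD13, was 4.50-fold higher in BASC than in Club cells (adjusted p = 9.84e-05). Pdpn, the podoplanin gene of alveolar type 1 and other cells, was at 0 and 0 in the BASC libraries against 561 and 457 in the Club libraries. Against the floor of 3 reads per library, BASC was at least 150-fold lower. Both calls were kept whichever library was left out. Prom1, which encodes CD133, had 27 and 18 normalised counts in the BASC libraries and 0 and 0 in the AT2 libraries, against 772 and 503 in the Club libraries. It was 28.3-fold lower in BASC than in Club cells (adjusted p = 0.0162), a call lost without BASC replicate 2 or either Club library, with adjusted p-values up to 0.278. Itgb4, the integrin CD104 of the EpCAM sorting scheme, had 130 and 246 in the BASC libraries and 216 and 90 in the AT2 libraries, against 1060 and 950 in the Club libraries. It was 5.35-fold lower in BASC than in Club cells (adjusted p = 0.0184), and the adjusted p reached 0.109 with 1 library left out. Between AT2 and Club cells, 6 of the 17 were higher and 7 lower in AT2.

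The 250 bases before the start sites of the broadly expressed members Epcam, Bmi1 and Mapk14 are printed from RefSeq (GRCm38.p6), to show what they have there. They lie at chr17:87635729-87635978, chr2:18676768-18677017 and chr17:28691092-28691341, all on the plus strand and ending at the base before the start. Capitals mark the GC box GGGCGG, the CCAAT box CCAAT and the E box CACGTG, on either strand, where neighbouring GC boxes can overlap each other. TATAAA was searched as well.
Epcam: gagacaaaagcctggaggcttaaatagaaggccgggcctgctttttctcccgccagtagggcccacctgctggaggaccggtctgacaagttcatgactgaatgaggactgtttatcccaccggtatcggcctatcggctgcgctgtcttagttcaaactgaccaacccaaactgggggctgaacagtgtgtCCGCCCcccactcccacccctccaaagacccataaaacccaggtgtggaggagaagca
Bmi1: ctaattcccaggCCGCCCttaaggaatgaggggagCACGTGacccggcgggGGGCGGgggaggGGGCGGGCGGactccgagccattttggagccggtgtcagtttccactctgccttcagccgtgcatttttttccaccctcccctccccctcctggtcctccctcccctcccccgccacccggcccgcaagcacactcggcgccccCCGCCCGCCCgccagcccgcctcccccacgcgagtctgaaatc
Mapk14: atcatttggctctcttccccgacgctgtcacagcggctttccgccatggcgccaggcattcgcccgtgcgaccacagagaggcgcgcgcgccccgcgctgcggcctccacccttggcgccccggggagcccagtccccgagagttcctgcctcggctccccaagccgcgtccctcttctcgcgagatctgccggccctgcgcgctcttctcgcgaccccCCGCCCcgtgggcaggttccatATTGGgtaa
The Bmi1 window holds 21 CpG dinucleotides, 6 GC boxes and 1 CACGTG, the Mapk14 window 30 CpG, 1 GC box and 1 CCAAT, and the Epcam window 8 CpG and 1 GC box. Over 32851 promoters of the same length the median was 6 CpG, and 32.7% held GGGCGG, 33.8% CCAAT, 12.4% TATAAA and 6.02% CACGTG. Mapk14 thus had more CpG than 94.1% of promoters, Bmi1 more than 83.7% and Epcam more than 57.0%. A second Mapk14 start, with 14 CpG in its window, held none of the 4 motifs. These matches are a description of the letters only.

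Epcam encodes the epithelial cell adhesion molecule, by which lung epithelium is sorted from other cells (ENSMUSG00000045394, GRCm38 chr17:87635979-87651106, plus strand). It had 1620 and 1604 normalised counts in the BASC libraries and 1995 and 1861 in the AT2 libraries, against 1890 and 1971 in the Club libraries. Both BASC values lay below the other 4, while AT2 and Club cells overlapped. The BASC mean of 1612 ± 11.3 was 83.6% of the AT2 mean of 1928 ± 94.8 and 83.5% of the Club mean of 1931 ± 57.3 (SD, n = 2 each). The log2 difference was -0.26 ± 0.125 (SE) against AT2 and the same against Club cells, with intervals of -0.55 to 0.04 and -0.55 to 0.03, and neither was called (adjusted p = 0.446 and 0.262). AT2 minus Club was -0.0024 on the log2 scale, with an interval of -0.30 to 0.29 (adjusted p = 0.994). The gap between the BASC replicates, 0.014 on the log2 scale, was larger than that of 4.06% of 715 genes of like level. None of the 50-base stretches of Epcam exons occurs in another annotated gene.

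Of 28 listed relatives, membrane partners and cleavage enzymes of EpCAM, 27 were tested. Between BASC and AT2, limma called 0 of them (at an unadjusted p under 0.05, 3 higher and 3 lower), with a median log2 difference of 0.07. Set against Club cells, BASC had 1 higher, Ctnnb1, and 4 lower, Cldn4, Spint1 and Spint2 among them. Ctnnb1, the gene of beta-catenin in junctions and the Wnt pathway, was 1.70-fold higher in BASC than in Club cells (adjusted p = 0.00225), kept whichever library was left out. Cldn4, a tight junction claudin gene, had 59 and 16 normalised counts in the BASC libraries and 8 and 10 in the AT2 libraries, against 431 and 393 in the Club libraries. It was 11-fold lower in BASC than in Club cells (adjusted p = 0.0288), with a fitted log2 difference of -3.69 that was -4.60 without BASC replicate 1 and -2.78 without BASC replicate 2. Cldn7, the claudin that binds EpCAM, had 863 and 680 in the BASC libraries and 530 and 794 in the AT2 libraries, against 1467 and 1399 in the Club libraries, which was called in AT2 against Club cells (-1.14, adjusted p = 0.0159) and not in BASC against Club cells (-0.90, adjusted p = 0.0518). Spint1, the gene of a membrane protease inhibitor, was 1.63-fold lower in BASC than in Club cells (adjusted p = 0.0460). The calls of Cldn4 and Spint1 in BASC against Club cells, and that of Cldn7, were lost without 1 library, with adjusted p-values up to 0.227, 0.263 and 0.0718. AT2 had 3 of the list higher and 8 lower than Club cells, Cldn4 being 45.8-fold lower (adjusted p = 0.00418) and Tspan8, a tetraspanin gene, 4.77-fold higher (adjusted p = 0.0465). The Tspan8 call was lost without either AT2 library, BASC replicate 2 or Club replicate 2, with adjusted p-values up to 0.226, and its log2 difference was 1.68 without Club replicate 2 and 3.14 without Club replicate 1.

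Bmi1 encodes a RING finger subunit of PRC1, the complex that places ubiquitin on histone H2A and keeps target genes such as the Cdkn2a locus silent (ENSMUSG00000026739, GRCm38 chr2:18677018-18686629, plus strand). It had 748 and 535 normalised counts in the BASC libraries and 693 and 1070 in the AT2 libraries, against 421 and 384 in the Club libraries. BASC overlapped AT2, and both stood above the 2 Club libraries. The BASC mean was 642 ± 151, the AT2 mean 882 ± 267 and the Club mean 403 ± 26.2 (SD, n = 2 each). BASC against AT2 gave a log2 difference of -0.44 ± 0.274 (SE), with an interval of -1.09 to 0.20 (adjusted p = 0.562). BASC against Club cells gave 0.65, with an interval of 0.01 to 1.30, a 1.59-fold ratio of means that was not called (adjusted p = 0.198). AT2 was 2.19-fold higher than Club cells and this was called (log2 difference 1.10, adjusted p = 0.0327). That call was lost without AT2 replicate 2 (0.78, adjusted p = 0.142), Club replicate 1 (1.16, 0.0915) or Club replicate 2 (1.03, 0.131), and after rescaling the libraries without ribosomal and mitochondrial genes (0.95, adjusted p = 0.0516). The AT2 replicates were 0.63 apart on the log2 scale, a larger gap than in 91.7% of 1075 genes of like level. A processed pseudogene, Gm5946, holds 16.6% of the 50-base stretches of Bmi1 exons and was itself listed at 0 to 21 normalised counts.

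The genes most like Bmi1 over the 6 samples were Il11ra1 (root mean square log2 difference 0.0785, r = 0.993), Ppfibp1 (0.0881, r = 0.986) and Ssh1 (0.0922, r = 0.985). Il11ra1, the interleukin 11 receptor gene, had 285 and 212 normalised counts in the BASC libraries and 297 and 439 in the AT2 libraries, against 166 and 138 in the Club libraries. All 3 had the high second AT2 library of Bmi1 and were called in AT2 against Club cells but not in either comparison of BASC. As they were picked for a profile like that of Bmi1, this follows largely from the choice.

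PRC1 had 28 of 30 listed subunit genes tested. Between BASC and AT2, limma called 0 of the 28 (at an unadjusted p under 0.05, 1 higher and 1 lower), with a median log2 difference of -0.11. Against Club cells BASC had 1 higher, Bcor, the gene of a corepressor in a variant PRC1, at 931 and 917 normalised counts in the BASC libraries and 1149 and 1141 in the AT2 libraries, against 544 and 610 in the Club libraries. That 1.60-fold difference (adjusted p = 0.0373) was lost without any one of the 6 libraries, with adjusted p-values up to 0.313. After rescaling to totals without ribosomal and mitochondrial genes, this comparison had 0 higher and 2 lower. Between AT2 and Club cells 5 were higher in AT2 (Bmi1, Pcgf3, Rybp and Bcor among them) and 0 lower, with a median of 0.34 beside -0.10 over all genes. With the same rescaling these were 2 higher and 1 lower, with a median of 0.19 beside -0.25 over all genes. Rybp, which joins variant complexes, was 2.53-fold higher in AT2 than in Club cells (adjusted p = 0.0411). With 1 library left out, its adjusted p reached 0.228, and that of Bcor 0.0550. The partners of Bmi1 that were followed whatever their call showed none. Pcgf2, the closest relative of Bmi1, had 588 and 613 in the BASC libraries and 471 and 701 in the AT2 libraries, against 384 and 433 in the Club libraries. Ring1, a catalytic subunit gene, had 249 and 222 in the BASC libraries and 203 and 90 in the AT2 libraries, against 134 and 223 in the Club libraries. Rnf2, the other catalytic subunit gene, had 285 and 350 in the BASC libraries and 346 and 280 in the AT2 libraries, against 351 and 275 in the Club libraries, so that the populations overlapped.

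**Figure D4:**
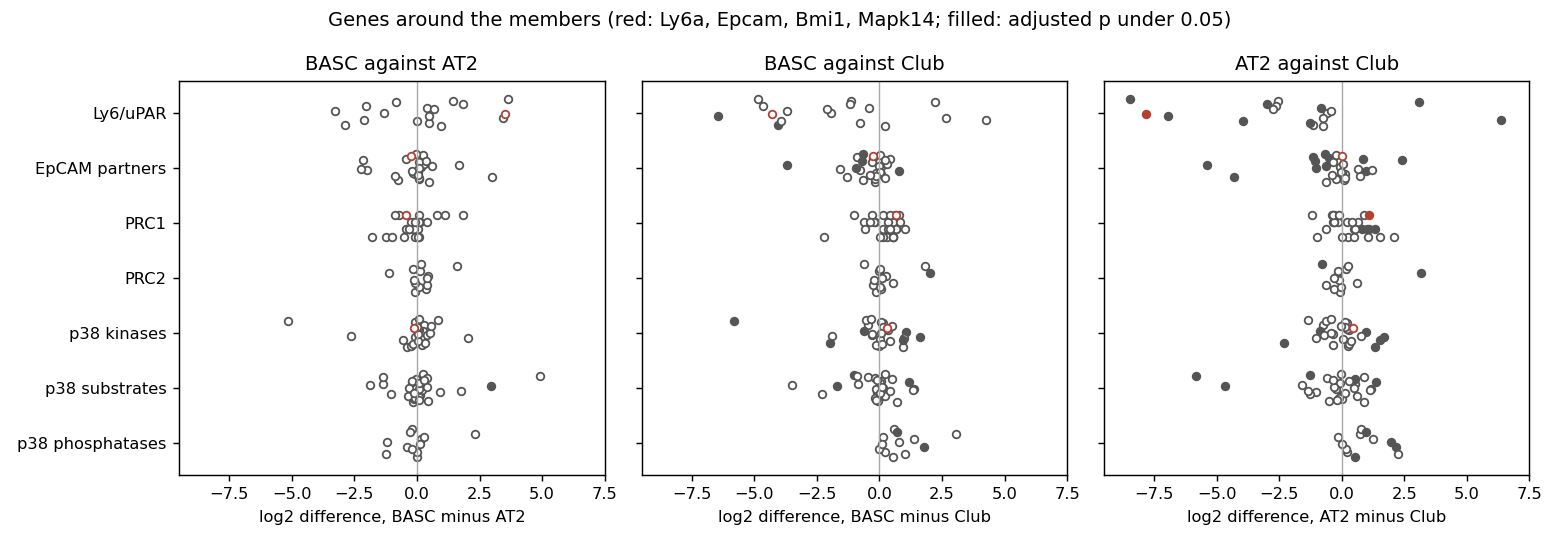
Fitted log2 differences of the tested genes in 7 lists around the members, 1 row per list, taken as BASC minus AT2, BASC minus Club and AT2 minus Club; filled points have an adjusted p under 0.05 and red marks Ly6a, Epcam, Bmi1 and Mapk14. In BASC minus AT2 the only filled point is Kcnk2, at 2.97 in the row of p38 substrates, although it is no classical p38 substrate. Most filled points are in AT2 minus Club.

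The plot of the lists sets each family beside the members, and its calls are to be read against the background over all genes, 0.553% higher and 0.079% lower in BASC against AT2, 5.77% and 5.42% in BASC against Club cells, and 8.42% and 9.71% in AT2 against Club cells. PRC2, the complex that methylates histone H3, had all 13 listed genes tested. Between BASC and AT2, limma called 0 of them (at an unadjusted p under 0.05, 0 higher and 1 lower). Between BASC and Club cells it called 1, Epop, which encodes a PRC2-associated protein and was 4.03-fold higher in BASC (adjusted p = 0.0125). Epop was 8.87-fold higher in AT2 than in Club cells (adjusted p = 0.00112). The BASC call was lost without either BASC library or Club replicate 2, with adjusted p-values up to 0.0706. Rbbp7, a histone chaperone gene, was 1.72-fold lower in AT2 than in Club cells (adjusted p = 0.0204), which reached 0.189 with 1 library left out. Ezh2, the PRC2 methyltransferase gene, had 197 and 211 normalised counts in the BASC libraries and 203 and 170 in the AT2 libraries, against 266 and 156 in the Club libraries, and was not called in any comparison.

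Of the cyclin dependent kinase inhibitors, 6 of 7 were tested, and limma called 0 in BASC against AT2 (at an unadjusted p under 0.05, also 0). Cdkn1a, the p21 gene, had 375 and 605 normalised counts in the BASC libraries and 621 and 630 in the AT2 libraries, against 112 and 78 in the Club libraries. It was 5.16-fold higher in BASC than in Club cells (adjusted p = 0.00521) and 6.58-fold higher in AT2 than in Club cells (adjusted p = 0.00161), both kept whichever library was left out. Cdkn1c, the imprinted p57 gene that earlier mouse work tied to Bmi1 in BASC, had 232 and 145 in the BASC libraries and 67 and 186 in the AT2 libraries, against 303 and 239 in the Club libraries. BASC overlapped AT2 there and lay below both Club libraries, and no comparison was called (adjusted p = 0.647 for BASC against AT2, 0.603 for BASC against Club cells and 0.166 for AT2 against Club cells). The deposited table did not list Cdkn2a, so it could not be analysed.

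Imprinted growth genes, a network also linked to Bmi1 in lung cells, had 25 of 37 tested. Between BASC and AT2, limma called 0 of the 25 (at an unadjusted p under 0.05, 4 higher and 1 lower). Against Club cells 5 were higher in BASC (Peg10, Slc38a4, Gnas, Nnat and Cd81) and 0 lower, while the median was -0.13. Nnat, the neuronatin gene, had 460 and 457 normalised counts in the BASC libraries and 370 and 432 in the AT2 libraries, against 54 and 52 in the Club libraries, and was 8.65-fold higher in BASC than in Club cells (adjusted p = 0.000885). Cd81, a tetraspanin gene, was 6.11-fold (adjusted p = 0.00174) and Peg10, a retrotransposon-derived gene, 4.71-fold higher (adjusted p = 0.00239) in BASC than in Club cells. These 3 calls were kept whichever library was left out. Slc38a4, an amino acid transporter gene, had 1605 and 1623 in the BASC libraries and 355 and 667 in the AT2 libraries, against 478 and 660 in the Club libraries. Its BASC values lay above all others, called against Club cells (2.84-fold, adjusted p = 0.0235, up to 0.130 with 1 library left out) and not against AT2 (adjusted p = 0.0779). Under quantile normalisation 8 of the 25 were higher and 1 lower in BASC than in Club cells. AT2 had 7 higher and 4 lower than Club cells, among them the non-coding RNA genes Rian, 42.3-fold higher (adjusted p = 0.00882), and Meg3, 23.5-fold higher (adjusted p = 0.00573). The Meg3 call was kept without any single library, and that of Rian was lost without either AT2 library (up to 0.0562).

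Mapk14 encodes p38 alpha, a stress-activated kinase that limits proliferation of lung progenitors in mice (ENSMUSG00000053436, GRCm38 chr17:28691342-28748404, plus strand). It had 797 and 575 normalised counts in the BASC libraries and 755 and 731 in the AT2 libraries, against 627 and 483 in the Club libraries. BASC overlapped both other populations, and AT2 lay above both Club libraries. BASC averaged 686 ± 157, AT2 743 ± 17.0 and Club cells 555 ± 102 normalised counts (SD, n = 2 each). The log2 difference was -0.13 ± 0.233 (SE) in BASC against AT2, with an interval of -0.68 to 0.41 (adjusted p = 0.861), and 0.30 in BASC against Club cells, with an interval of -0.25 to 0.85 (adjusted p = 0.506). AT2 against Club cells gave 0.43, with an interval of -0.12 to 0.98 (adjusted p = 0.272). No comparison was called, and the intervals allow BASC to be as much as 1.80-fold above Club cells or 1.60-fold below AT2. None of the 50-base stretches of Mapk14 exons occurs in another annotated gene.

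The list of p38 kinases and their activators had 27 genes, all tested. Between BASC and AT2, limma called 0 of the 27 (at an unadjusted p under 0.05, 1 higher and 3 lower), with a median of 0.05. Compared with Club cells, BASC had 3 higher (Map3k20, Taok3 and Gadd45g) and 3 lower (Mapk11, Mapk12 and Map3k1). Map3k20, a stress kinase upstream of p38, was 3.10-fold higher in BASC than in Club cells (adjusted p = 0.00123) and Taok3, a kinase gene of the same tier, 1.91-fold (adjusted p = 0.00296), both kept whichever library was left out. The p38 isoforms did not follow one pattern. Mapk11, p38 beta, was at 0 and 0 in the BASC libraries and 21 and 57 in the AT2 libraries, against 132 and 22 in the Club libraries, so that against the floor of 3 reads BASC was at least 11.5-fold lower than AT2 and at least 22.8-fold lower than Club cells. These bounds rested on 1 library each, being 6.21-fold without AT2 replicate 2 and 6.50-fold without Club replicate 1. Mapk11 was called in BASC against Club cells (limma adjusted p = 0.0276) and not in BASC against AT2 (adjusted p = 0.140). Mapk12, p38 gamma, had 94 and 137 in the BASC libraries and 118 and 70 in the AT2 libraries, against 556 and 367 in the Club libraries, 4.0-fold lower in BASC than in Club cells (adjusted p = 0.0303, up to 0.276 with 1 library left out). Mapk13, p38 delta, had 354 and 503 in the BASC libraries and 364 and 277 in the AT2 libraries, against 533 and 500 in the Club libraries, and was called in no comparison. Of the activating kinases, Map2k3 had 1003 and 724 in the BASC libraries and 598 and 833 in the AT2 libraries, against 1237 and 1130 in the Club libraries, and Map2k6 had 11 and 28 in the BASC libraries and 0 and 20 in the AT2 libraries, against 21 and 3 in the Club libraries. Neither was called. Gadd45g, a stress-induced p38 activator, was 2.11-fold higher in BASC than in Club cells (adjusted p = 0.0390, up to 0.176 with 1 library left out), and Gadd45a was 2.57-fold higher in AT2 than in Club cells (adjusted p = 0.0311, up to 0.195).

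Among p38 substrates and effectors, 30 of 32 were tested. BASC against AT2 had 1 higher and 0 lower, where at an unadjusted p under 0.05 there were 3 higher and 2 lower. The gene called was Kcnk2, which encodes a mechanosensitive potassium channel and is no classical p38 substrate. No other gene of the list was called in that comparison. Kcnk2 had 861 and 1222 normalised counts in the BASC libraries and 115 and 147 in the AT2 libraries. In the Club libraries it had 2877 and 3834. The BASC mean was 7.95-fold the AT2 mean (adjusted p = 0.00491), lost without either BASC library with adjusted p-values up to 0.174, and it was 3.22-fold lower than the Club mean (adjusted p = 0.00645, 0.0568 without BASC replicate 1). As with Cd24a, its 3 populations did not overlap and BASC lay between the others. Compared with Club cells, BASC had Cebpa and Cdc25b higher and Cebpb and Kcnk2 lower. Cebpa, a transcription factor gene of AT2 and Club cell differentiation, had 6057 and 5793 in the BASC libraries and 6154 and 7372 in the AT2 libraries, against 2296 and 2908 in the Club libraries. It was 2.28-fold higher in BASC than in Club cells (adjusted p = 0.00317), a call kept whichever library was left out. Cebpb, its relative, had 1316 and 1501 in the BASC libraries and 1086 and 1284 in the AT2 libraries, against 2788 and 2953 in the Club libraries, 2.04-fold lower in BASC than in Club cells (adjusted p = 0.00579, 0.0504 without BASC replicate 1). Cdc25b, a cell cycle phosphatase gene, was 2.59-fold higher in BASC than in Club cells (adjusted p = 0.0182, up to 0.126 with 1 library left out). Mapkapk2, the kinase directly downstream of p38 alpha, had 2401 and 2585 in the BASC libraries and 2419 and 2681 in the AT2 libraries, against 1693 and 1864 in the Club libraries. It was called in AT2 against Club cells (log2 difference 0.52, adjusted p = 0.0325) and not in BASC against Club cells (0.49, adjusted p = 0.0559). Pla2g4a, the cytosolic phospholipase gene, was 33.6-fold lower in AT2 than in Club cells (adjusted p = 0.00743), 17.9-fold without AT2 replicate 1 and 277-fold without AT2 replicate 2, with 244 and 363 in the BASC libraries, 2 and 31 in the AT2 libraries and 566 and 543 in the Club libraries.

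Of the phosphatases that act on p38, 12 of 16 were tested. From AT2, BASC differed by call in 0 of the 12 (at an unadjusted p under 0.05, 0 higher and 1 lower), with a median of -0.10. Against Club cells, 2 were higher in BASC (Dusp4 and Ppm1b) and 0 lower, with a median of 0.63 beside -0.10 over all genes. AT2 against Club cells had 4 higher (Dusp1, Dusp4, Dusp7 and Ppm1b) and 0 lower, with a median of 0.75, and 3 higher after the rescaling. Dusp4, a nuclear MAP kinase phosphatase gene, had 588 and 700 normalised counts in the BASC libraries and 849 and 847 in the AT2 libraries, against 239 and 144 in the Club libraries. It was 3.36-fold higher in BASC than in Club cells (adjusted p = 0.00840, up to 0.0743 without a BASC library) and 4.43-fold higher in AT2 than in Club cells (adjusted p = 0.00213, kept without any library). Ppm1b was 1.61-fold higher in BASC than in Club cells (adjusted p = 0.0256, up to 0.182 with 1 library left out). Dusp7 was 4.0-fold higher in AT2 than in Club cells (adjusted p = 0.00496). Dusp1, the early-response phosphatase gene, had 4738 and 5423 in the BASC libraries and 4464 and 5682 in the AT2 libraries, against 3439 and 3583 in the Club libraries. Its BASC and AT2 values overlapped and lay above Club cells, called for AT2 against Club cells (1.44-fold, adjusted p = 0.0484, up to 0.186 with 1 library left out) and not for BASC against Club cells (adjusted p = 0.0623).

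Other genes that have been studied as regulators of BASC growth were counted beside the members, 19 of 20 being tested with Bmi1 and Mapk14 among them. Of the 19, limma called 0 between BASC and AT2 (at an unadjusted p under 0.05, 2 higher and 2 lower). Compared with Club cells, BASC had 3 higher (Cebpa, Ctnnb1 and Thbs1) and 0 lower, and AT2 had 6 higher and 1 lower. After the rescaling the 2 counts were 3 higher and 1 lower each. Thbs1, the thrombospondin gene, had 2843 and 2977 normalised counts in the BASC libraries and 1635 and 1884 in the AT2 libraries, against 803 and 1169 in the Club libraries. Its BASC values lay above all others, called against Club cells (2.95-fold, adjusted p = 0.00299, kept whichever library was left out). Against AT2 it was not called (adjusted p = 0.177). Notch1 was 2.01-fold lower in AT2 than in Club cells (adjusted p = 0.00905, 0.0610 without AT2 replicate 2), and Nfatc1 2.38-fold higher (adjusted p = 0.0381, up to 0.157 with 1 library left out).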

How the data were processed

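The deposited table holds 1 normalised value per gene and sample; the authors rounded these normalised counts to whole numbers, so they were treated as a score and not as raw counts. Per the submitters' processing notes, FastQC, STAR 2.4.0a and featureCounts 1.4.5-p1 of Subread were used with the mouse genome mm10 (GRCm38); how the values were normalised, which strand was counted and which annotation was used is not given in the sources used here. Per the labels, 100 pg of total RNA was the input of a stranded library kit made for picogram amounts of total RNA.

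Values were analysed as log2(value + 1) for 17721 genes with at least 10 in at least 2 of 6 samples, with a mean per population in 1 model for all libraries (limma 3.58.1, R 4.3.3; eBayes with a trend, 3 residual degrees of freedom per gene and 4.20 from the prior). The 2-sided tests had Benjamini-Hochberg adjustment over all genes tested. Folds are ratios of group means. The fit was tested on simulated data, with a single setting of the spread for all genes and changes only in BASC. Changes were placed in genes of higher level, so the test does not cover calls of genes with few reads, such as Ly6a. Whole reads could not be recovered exactly, so no count model was run. Exon lengths and shared 50-base stretches came from GENCODE M21, in which 99.8% of the gene identifiers were found; coordinates are those deposited.

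The members and gene lists were chosen with earlier results of these data known. Named were the members, 20 fixed counterparts, up to 4 called genes per list and comparison with the largest fitted difference with 100 or more as the mean of the higher population, and 3 genes most like each called member. Some genes that this rule names are not reported here. Ly6g6c, the genes named only in counts, and those named for their position between AT2 and Club cells fall outside that rule and were chosen after their values were seen. Alternatives changed the added constant, the filter, the scaling, the trend, the replicate block, the groups fitted and the libraries used.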

Additional observations from a re-analysis of the deposited data

How the results depend on the processing

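Counts of called genes moved with the filter, the trend and single libraries. Among genes with at least 50 in 2 samples, 265 (204 higher and 61 lower) were called in BASC against AT2, beside 112, and 455 in BASC against the midpoint, beside 286. Without the trend, 1183 were called in BASC against Club cells, beside 1983, and 2028 in AT2 against Club cells, beside 3212. With 1 library left out the counts ran from 3 to 112, 853 to 1888, 1539 to 3291 and, for the midpoint, 4 to 278. Cd24a in BASC against Club cells had an adjusted p of 0.148 without the trend (-0.88) and ran from -0.91 to -0.85 over libraries left out; its midpoint difference ran from 2.05 to 2.22. Ly6a in BASC against Club cells was called with an added constant of 8 (-3.47) and with the filter of 50 (-4.29), and ran from -5.81 to -2.77; in AT2 against Club cells it ran from -7.93 to -7.69, and against the midpoint from -1.91 to 1.14, and was 0.010 with a constant of 0.5. Bmi1 in AT2 against Club cells was 0.95 after the rescaling (adjusted p = 0.0516), had an adjusted p of 0.143 without the trend (1.10), and ran from 0.78 to 1.41; its midpoint difference ran from -0.14 to 0.35. Epcam in AT2 against Club cells ran from -0.053 to 0.048, Mapk14 in BASC against AT2 from -0.37 to 0.10 and against the midpoint from -0.15 to 0.32. The causes were not tested. The rescaling moved the median over all genes by -0.15 in AT2 against Club cells, so that the 1.10 of Bmi1 and its value after rescaling lie alike above the medians of -0.10 and -0.25.

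Of 65 differences of other named genes, none reversed; 12 of 28 in BASC against Club cells, 19 of 36 in AT2 against Club cells and 0 of 1 in BASC against AT2 were called whichever library was left out, and 31 of 65 were called without the trend.

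Same-numbered replicates did not deviate together over all genes (r = 0.00600, 0.00846 and 0.0118 over 17721 genes, genes not being independent). Genes with few reads and wide replicate gaps were included, so a pairing that moved only some genes could go unseen. Whether the numbers pair the samples therefore stays unknown. With the replicate block the counts were 120, 1861, 3045 and, for the midpoint, 280, and no call of a member changed.

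Precision was limited by 2 samples per population, and for Ly6a by its few reads.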
